A study of Homo sapiens with 12 samples.

Results

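The peroxiredoxins and a few small redox proteins were followed in prostate cells in which the transcription factor ERG had been raised or targeted. The list held 10 genes (ROMO1, ATOX1, SOD1, PRDX1 to PRDX6 and TXN), and every probe annotated to them was taken. In all, 8 of the 10 genes were measured, among 17262 genes with a probe in at least 1 of the 2 array tables. They had 7 probes among 20589 in the RWPE1 table and 9 among 24525 in the VCaP table, where PRDX1 had 2 probes for the same transcript. PRDX3 had a probe in the VCaP table alone, and PRDX2 and PRDX5 had none annotated in either table. The list was selected on the VCaP differences between shRNA groups, in which ROMO1 and ATOX1 were among the lowest genes, so the VCaP values are given below as a description without a test.

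The measurements were normalised log2 signals of total RNA on single-colour bead arrays, with 12 arrays in 6 groups of 2. RWPE1, an immortalised, non-cancerous prostate epithelial line, was grown in KSFM medium and transfected with a construct for GFP, the control, or for ERG joined to GFP (GFP-ERG), and RNA was taken 48 h or 72 h later. VCaP, a prostate cancer line with a TMPRSS2-ERG fusion, was grown in RPMI medium and received a lentiviral scramble shRNA, the control, or a lentiviral ERG shRNA. All VCaP cells of both groups went through puromycin selection. The labels give no promoter for the constructs and name no individual shRNA sequence, and they say that transfections were made in duplicate without stating how the arrays of a pair differ in origin. The p-values therefore cover the spread between arrays, which may be technical. As the samples are bulk RNA, fewer cells of a type and less RNA per cell cannot be told apart.

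Peroxiredoxins remove hydrogen peroxide and other peroxides with a reactive cysteine, which most of them then restore with thioredoxin, the product of TXN. PRDX1 and PRDX2 work mainly in the cytosol, PRDX3 in mitochondria and PRDX4 in the endoplasmic reticulum (ER), while PRDX5 is found in several compartments and PRDX6 relies on glutathione. SOD1, the copper and zinc superoxide dismutase, produces hydrogen peroxide from superoxide. ATOX1 is a cytosolic copper chaperone that hands copper to the ATPases of the secretory pathway, and ROMO1 is a small protein of the inner mitochondrial membrane that is linked to reactive oxygen species and to the TIM23 import channel. Cancer cells, including those of the prostate, often carry high levels of these proteins.

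The sequence before the transcript start is shown for ROMO1 and ATOX1, the genes with the greatest VCaP differences, and for PRDX3, which differed in the opposite direction. Each is the 250 bases upstream of the RefSeq start, on the gene's own strand, from GRCh38.p14. Capitals mark CCGGAAG, a core bound by ETS factors, the family of ERG, and GGGCGG, the box bound by SP1, on either strand.
ROMO1 (chr20:35699155-35699404, plus strand): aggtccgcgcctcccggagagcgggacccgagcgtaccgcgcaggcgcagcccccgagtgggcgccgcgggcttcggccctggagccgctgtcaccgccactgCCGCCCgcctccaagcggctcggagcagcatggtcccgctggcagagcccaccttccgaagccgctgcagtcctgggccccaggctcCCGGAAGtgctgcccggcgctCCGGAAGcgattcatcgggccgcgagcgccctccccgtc
ATOX1 (chr5:151758632-151758881, minus strand): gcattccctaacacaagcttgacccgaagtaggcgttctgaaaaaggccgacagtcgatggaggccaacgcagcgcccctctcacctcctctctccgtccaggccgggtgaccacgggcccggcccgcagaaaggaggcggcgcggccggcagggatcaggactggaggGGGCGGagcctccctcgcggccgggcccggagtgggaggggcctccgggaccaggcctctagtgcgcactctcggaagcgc
PRDX3 (chr10:119178813-119179062, minus strand): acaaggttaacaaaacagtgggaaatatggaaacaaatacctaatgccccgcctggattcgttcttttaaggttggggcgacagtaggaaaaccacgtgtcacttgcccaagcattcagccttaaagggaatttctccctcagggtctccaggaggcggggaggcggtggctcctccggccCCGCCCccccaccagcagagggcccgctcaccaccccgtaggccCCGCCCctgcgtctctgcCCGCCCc
The promoter table held 7 of the 10 genes, all but SOD1, PRDX1 and PRDX6. CCGGAAG was found in 2 of the 7 windows. ROMO1 held it at 60 to 54 and again at 39 to 33 bases before the start, and PRDX5 held it at 62 to 56 bases before the start. The stretch of the ROMO1 window up to base 35699352 of chromosome 20 also lies in NFS1, a gene that runs the other way. Of all 27305 promoter windows of this length, 8.82% held CCGGAAG and 1.32% held it 2 or more times. GGGCGG was in 7 of 7 windows and in 42.3% of all windows. Neither TGACNNNGC, the core of the antioxidant response element (11.03% of all windows), nor CCAAT (33.0%) was in any of the 7. The median GC content was 70.0% in the 7 windows and 58.0% in all. The motifs, searched on both strands, were chosen after the expression values were known, and a match describes letters rather than a bound site.

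Several facts of the arrays bear on the values. In RWPE1, 1 ERG probe (NM_182918) was 0.95 log2 units higher with GFP-ERG at 48 h and 0.63 higher at 72 h (limma with Benjamini-Hochberg, adjusted p = 2.05e-09 and 1.06e-06), whereas the other ERG probe (NM_004449) differed by −0.02 as the mean of both times. In VCaP the brightest ERG probe read 8.34 ± 0.02 (SD, n = 2) in the scramble arrays and 8.74 ± 0.04 in those labelled ERG shRNA, which is against the label, and the other ERG probes differed by −0.01 and −0.04 near the bottom of the scale. VCaP samples are therefore called the arrays labelled ERG shRNA throughout, and no direction below can be read as that of an ERG decrease. The pair of arrays labelled ERG shRNA was also the least alike: 138 of its probes differed by more than 1 log2 unit within the pair, against 4 for the scramble pair and at most 1 for any RWPE1 pair. Of the luminal prostate markers, KLK2 stood between percentiles 98.9 and 99.5 in the VCaP arrays, TMPRSS2 at the 98.2nd to 98.7th, and FOLH1 and HOXB13 at the 84.2nd or above, while KLK3 lay at only the 67.5th to 80.0th. In RWPE1, the basal keratins KRT5 and KRT14 lay at the 98.8th percentile or above, while KRT15 lay at the 48.1st to 56.7th. The luminal keratins KRT8 and KRT18 did not separate the lines as labelled, with 82.3rd to 93.0th percentiles in RWPE1 and 68.4th to 83.6th in VCaP.

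ROMO1 and ATOX1 were the lowest of the list in the VCaP arrays labelled ERG shRNA. ROMO1 (chr20:35699405-35700980) read 12.89 and 12.66 in the scramble arrays and 10.45 and 10.69 in the arrays labelled ERG shRNA. ATOX1 (chr5:151742822-151758631) read 11.23 and 11.54 in the scramble arrays and 9.10 and 9.29 in the others. Both arrays labelled ERG shRNA lay below both scramble arrays for either gene. The mean of ROMO1 went from 12.77 ± 0.16 to 10.57 ± 0.17 (SD, n = 2 each), a log2 difference of −2.20 or a 4.60-fold lower signal. The mean of ATOX1 went from 11.38 ± 0.22 to 9.20 ± 0.13, a log2 difference of −2.19 or a 4.55-fold lower signal.

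TXN, PRDX1, PRDX4 and SOD1 were lower by about 1 log2 unit. TXN (chr9:110243810-110256507) read 13.68 and 13.61 with scramble and 12.51 and 12.41 in the arrays labelled ERG shRNA, a log2 difference of −1.18. The brighter PRDX1 probe (ILMN_2366388) read 12.25 and 12.49 against 11.26 and 11.14, a log2 difference of −1.17. The second PRDX1 probe (ILMN_2366391) read 11.71 and 11.73 against 10.63 and 10.42, a log2 difference of −1.19. The PRDX1 probes, both for the transcript of the gene at chr1:45511051-45522890, thus gave nearly the same difference. PRDX4 (chrX:23667493-23686397), the peroxiredoxin of the ER, read 12.90 and 12.59 with scramble and 11.85 and 11.54 in the others, a log2 difference of −1.05. SOD1 (chr21:31659693-31668931) read 13.31 and 13.30 against 12.72 and 12.06, a log2 difference of −0.91. For SOD1 the arrays labelled ERG shRNA stood 0.66 apart, so its size was the least certain of the lower genes, and leaving out array 1 or array 2 of that group gave −1.24 or −0.58.

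PRDX3 and PRDX6 went the other way. PRDX3 (chr10:119167720-119178812), the mitochondrial peroxiredoxin, read 12.29 and 12.28 with scramble and 12.94 and 12.81 in the arrays labelled ERG shRNA, a log2 difference of 0.60 or 1.51-fold. PRDX6 (chr1:173477335-173488815) read 12.34 and 12.57 with scramble and 12.83 and 13.45 in the others, a log2 difference of 0.68 or 1.60-fold. The peroxiredoxins of this list therefore did not share a direction: PRDX1 and PRDX4 were lower and PRDX3 and PRDX6 higher. For PRDX6 the arrays labelled ERG shRNA stood 0.61 apart, and without array 2 of that group its difference was 0.37.

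**Figure D1:**
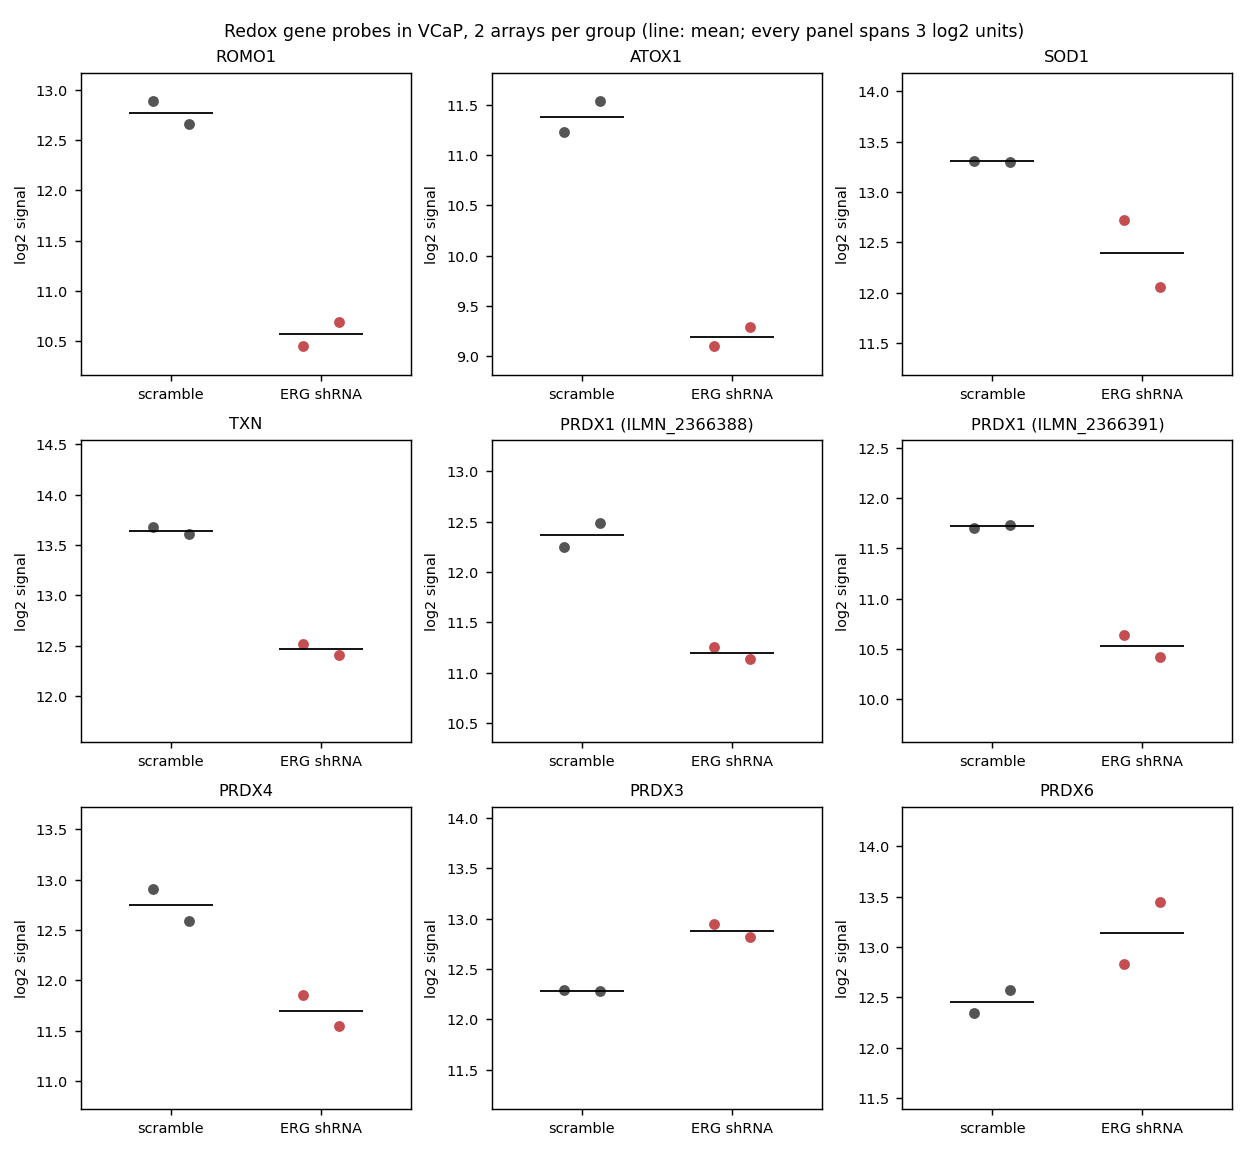
Log2 signal of the 9 probes in each VCaP array (points), with the group mean as a line and every panel spanning the same number of log2 units. The arrays labelled ERG shRNA lie below the scramble arrays for ROMO1, ATOX1, SOD1, TXN, both PRDX1 probes and PRDX4, and above them for PRDX3 and PRDX6.

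Over the 8 measured genes the median VCaP difference was −1.11 log2 units, with 6 lower and 2 higher, while the median over all probes was 0.00 and 47.7% of them were lower. The arrays of the groups did not overlap for any of the 9 probes, and neither did they for 51.3% of all probes. Nothing is read from these counts, since the same contrast chose the list. With any 1 array left out the median over the list was −1.23 to −1.004. Calls of genes of the list from such fits are not counted, since the spread of these fits comes from the 1 remaining pair.

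The differences in VCaP moved with signal and with gene span, the distance from the first to the last base of a gene, which was examined after the values were seen. Apart from the list, 1723 genes had a mean signal at least that of ATOX1, the dimmest gene of the list, and their median difference was 0.12, with 41.8% lower. Of these, the 728 genes that spanned no more than PRDX4, the longest of the list at 18905 bases, had a median of −0.20, and 61.1% were lower. The 995 longer genes had a median of 0.30, and 27.6% were lower. Short, bright genes as a whole were thus lower more often than long, bright ones. The genes of the list spanned 1576 bases (ROMO1) to 18905 bases (PRDX4), with ATOX1 at 15810, PRDX3 at 11093 and PRDX6 at 11481. The part of gene span or RNA quality in these differences was not tested.

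**Figure D2:**
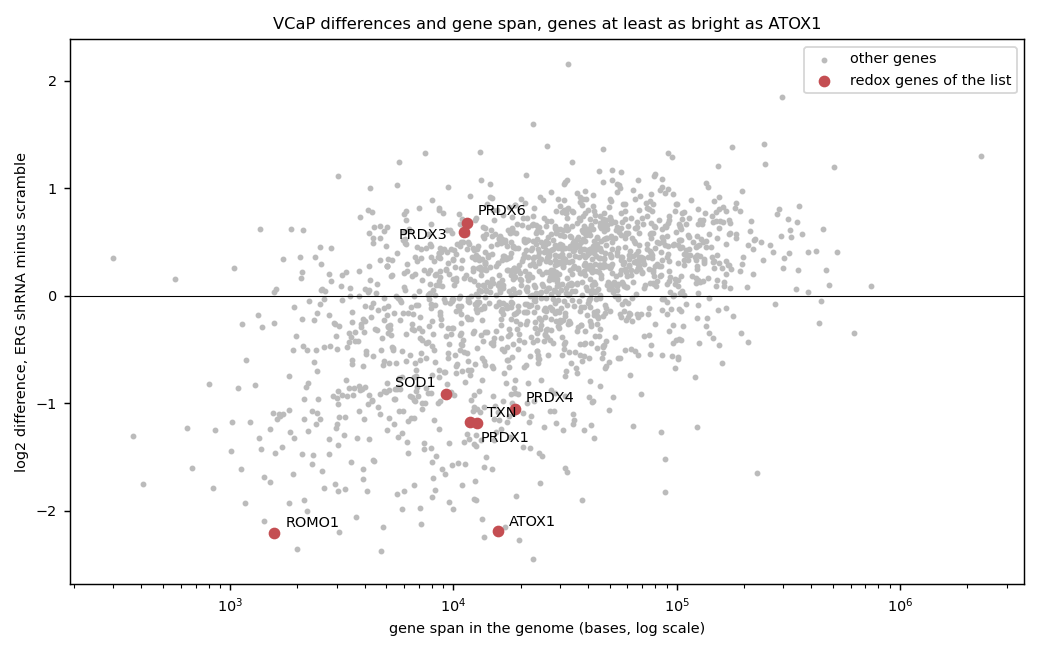
Log2 difference between the arrays labelled ERG shRNA and the scramble arrays (vertical) against gene span in bases on a log axis (horizontal), for genes with a mean VCaP signal at least that of ATOX1. Grey points are the 1723 other genes and red points the 8 genes of the list, of which 6 lie below 0 and PRDX3 and PRDX6 above.

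In RWPE1, ROMO1 was the only gene of the list that GFP-ERG changed past the threshold, and there it was higher. ROMO1 read 12.55 and 12.52 in the GFP arrays at 48 h and 13.13 and 13.19 in the GFP-ERG arrays. At 72 h it read 12.53 and 12.57 with GFP and 12.99 and 13.04 with GFP-ERG. All 4 GFP-ERG arrays were above all 4 GFP arrays, with a gap several times the spread within any group, and 7.68% of all probes had no overlap between the constructs. ROMO1 rose by 0.62 log2 units at 48 h (SE 0.06, 1.54-fold, limma with Benjamini-Hochberg, adjusted p = 4.46e-07) and by 0.46 at 72 h (SE 0.06, 1.38-fold, adjusted p = 3.30e-05). As the mean of both times the rise was 0.54 (SE 0.04, 95% interval 0.45 to 0.64, adjusted p = 1.00e-08). The sign was opposite to that of ROMO1 in VCaP, where an ERG shRNA was set against scramble on another array design. As ERG mRNA was not lower in the arrays labelled ERG shRNA, the signs cannot be compared between the lines.

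ATOX1, the other gene that was far lower in VCaP, did not pass in RWPE1. At 48 h it read 12.99 and 12.97 with GFP and 12.85 and 12.96 with GFP-ERG, and it read 12.93 and 13.04 against 12.87 and 12.94 at 72 h. The groups were apart at 48 h (log2 difference −0.07, limma adjusted p = 0.645) and overlapped at 72 h. The mean difference over both times was −0.08 (SE 0.05, limma adjusted p = 0.368). Its 95% interval ran from −0.18 to 0.02.

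PRDX1, PRDX6, TXN and SOD1 differed little with GFP-ERG. At 48 h PRDX1 read 14.15 and 14.26 with GFP and 14.16 and 14.19 with GFP-ERG, and at 72 h it read 14.50 and 14.53 against 14.54 and 14.40. PRDX6 read 12.47 and 12.61 against 12.59 and 12.54 at 48 h, and 12.62 and 12.75 against 12.70 and 12.61 at 72 h. In both genes the arrays of GFP and GFP-ERG overlapped at each time. At 48 h TXN read 14.57 and 14.60 with GFP and 14.54 and 14.52 with GFP-ERG, and at 72 h it read 14.73 and 14.64 against 14.65 and 14.55. SOD1 read 13.71 and 13.77 against 13.80 and 13.68 at 48 h, and 13.85 and 13.75 against 13.86 and 13.78 at 72 h. TXN thus lay a little lower with GFP-ERG, and SOD1 overlapped throughout. The mean differences were −0.04 for PRDX1, 0.00 for PRDX6, −0.07 for TXN and 0.01 for SOD1 (limma, adjusted p from 0.398 to 0.999).

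PRDX4 was the nearest to the threshold of the rest. At 48 h it read 11.65 and 11.63 with GFP and 11.63 and 11.68 with GFP-ERG, and at 72 h it read 11.59 and 11.58 against 11.72 and 11.78. The groups overlapped at 48 h and were apart at 72 h, as were those of 46.7% of all probes, and there the difference was 0.16 (SE 0.06, unadjusted p = 0.0167, limma adjusted p = 0.159 over all probes). The mean of both times was 0.09 (SE 0.04, limma adjusted p = 0.244). Of the 7 genes, 1 was called over the times together, against 11.1% of all probes, and the same 1 at 48 h (7.77% of all probes) and at 72 h (5.67%), so the share called was close to the background. The 95% intervals of the mean difference for the 6 genes not called lay between −0.18 and 0.18, and the median over the 7 genes was −0.00, as it was over all probes.

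**Figure D3:**
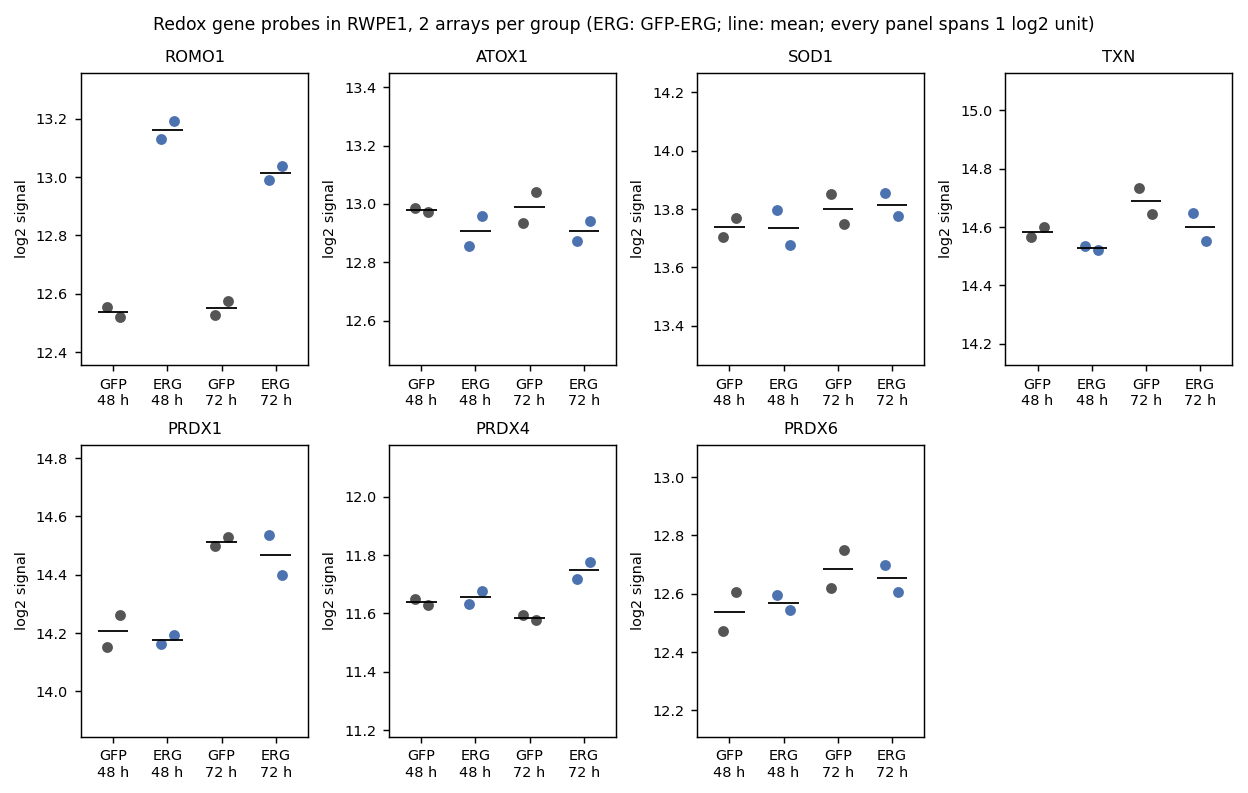
Log2 signal of the 7 probes in each RWPE1 array (points) at 48 h and 72 h with GFP (grey) or GFP-ERG (blue), with the group mean as a line and every panel spanning 1 log2 unit. GFP-ERG stands clear of GFP at both times for ROMO1, and PRDX1 is higher at 72 h than at 48 h with either construct.

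The GFP-ERG effect was then compared between the times. For ROMO1 the effect at 72 h minus that at 48 h was −0.16 (SE 0.09, 95% interval −0.35 to 0.02, limma adjusted p = 0.623). For PRDX4 it was 0.15 (SE 0.09, 95% interval −0.04 to 0.33, limma adjusted p = 0.659). None of the 7 genes was called for this difference by limma (0 at an unadjusted p under 0.05 as well), and 0.403% of all probes were. These intervals still allow a modest difference between the times for either gene.

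PRDX1 was higher at 72 h than at 48 h with either construct. PRDX1 rose from 14.21 ± 0.08 at 48 h to 14.51 ± 0.02 at 72 h in GFP cells, a log2 difference of 0.31 (SE 0.07, 1.24-fold, limma adjusted p = 0.00199). In GFP-ERG cells it rose from 14.18 ± 0.02 to 14.47 ± 0.10, a log2 difference of 0.29 (SE 0.07, 1.22-fold, limma adjusted p = 0.00268). The rise differed between the constructs by −0.01 (SE 0.10, 95% interval −0.21 to 0.18, limma adjusted p = 0.983). PRDX1 was the only gene of the 7 that passed in GFP cells, where 21.0% of all probes did, and in GFP-ERG cells, where 23.1% did. The call in GFP cells rests on GFP array 1 at 48 h, without which the difference was 0.25 (limma adjusted p = 0.0523). That in GFP-ERG cells rests on GFP-ERG array 1 at 72 h, without which it was 0.22 (limma adjusted p = 0.0698).

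The remaining genes moved less with time. The ROMO1 difference between 72 h and 48 h was 0.01 in GFP cells and −0.15 in GFP-ERG cells (SE 0.06, limma adjusted p = 0.106). That of PRDX6 was 0.15 in GFP cells (SE 0.07, limma adjusted p = 0.164). TXN was 0.11 higher in GFP cells and 0.07 higher in GFP-ERG cells, and neither difference passed. Of the 7 genes, 6 had a positive difference in each construct, all but PRDX4 in GFP cells and all but ROMO1 in GFP-ERG cells. These included ATOX1 at only 0.01 and 0.00, and none but PRDX1 passed. Of all probes, 49.1% were lower at 72 h in GFP cells and 49.8% in GFP-ERG cells.

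**Figure D4:**
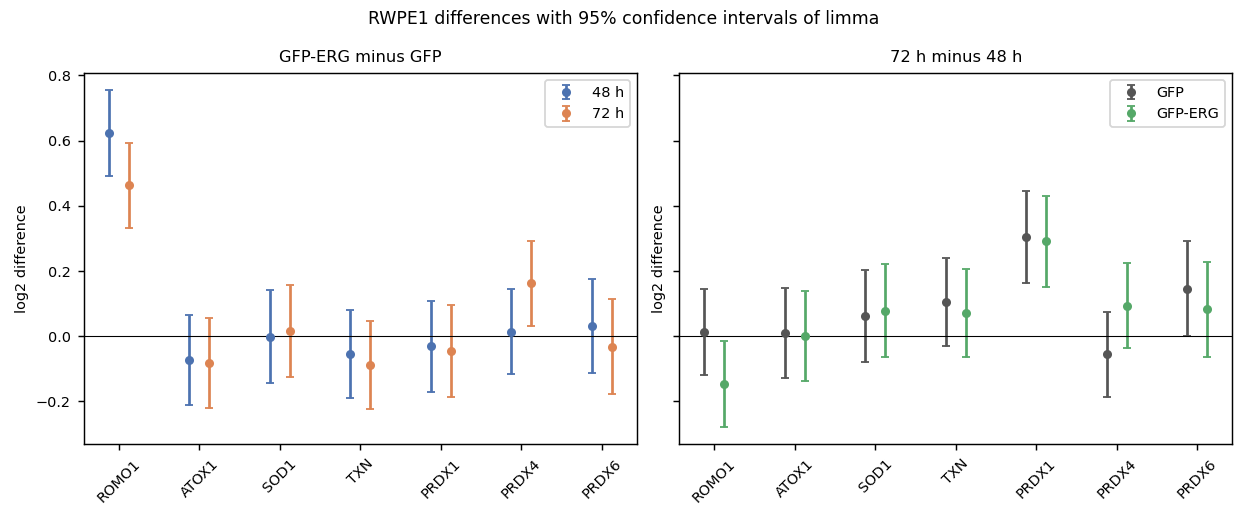
Log2 differences of the 7 RWPE1 genes with their 95% confidence intervals from limma, for GFP-ERG minus GFP at each time (left) and for 72 h minus 48 h with each construct (right). On the left only ROMO1 passed the threshold, at 0.62 and 0.46, and on the right only PRDX1, at 0.31 and 0.29.

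Markers of other cell types were set beside these differences. In VCaP, limma called none of the 8 fibroblast, 7 endothelial and 6 leukocyte genes measured, against 3.39% of all genes. Of the luminal genes KLK3 was called, 0.69 log2 units lower (limma adjusted p = 0.0453), 1 of 7 measured. Of the luminal genes not called, FOLH1 differed by 1.201 (limma adjusted p = 0.0631), KLK2 by 0.44, HOXB13 by 0.32, KRT18 by −0.22, TMPRSS2 by −0.14 and KRT8 by −0.02. The summed luminal signal was 14.11 to 14.47 on the log2 scale in the arrays labelled ERG shRNA and 13.91 to 14.15 in the scramble arrays. In RWPE1, where ROMO1 rose, the leukocyte gene CD14 rose by 1.03 as the mean of both times, 1 of 6 genes called. The endothelial genes TEK and CLDN5 rose by 0.73 and 0.32, 2 of 7, while the fibroblast gene DCN fell by 0.26, 1 of 8. Of all genes, 6.65% were called higher and 5.51% lower, and no excess is read from so few markers. The summed endothelial signal on the log2 scale was 9.75 to 9.79 with GFP and 10.05 to 10.06 with GFP-ERG at 48 h, and 9.49 to 9.51 and 9.62 to 9.71 at 72 h. The summed leukocyte signal was 12.38 to 12.45 with GFP and 12.54 to 12.57 with GFP-ERG at 48 h, and 11.37 to 11.49 and 11.57 to 11.65 at 72 h. Both sums were thus higher with GFP-ERG at each time, without overlap. Of single probes, 46.7% had no overlap at 72 h, a share that does not carry over to sums. No such share is given for 48 h, so nothing is read from the lack of overlap. In the leukocyte sum CD68 alone read 12.26 with GFP at 48 h, while PTPRC, CD3E, LYZ and ITGAM lay at or below the 43.6th percentile. Of the endothelial genes, VWF, CDH5 and ESAM lay at or below the 17.8th percentile. The sums therefore rest on few genes and are not read as cells of these types. The part of these markers in the ROMO1 rise was not tested.

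The surrounding redox and import pathways were examined through 7 lists of 106 genes that leave out the list itself. In VCaP, 97 of these genes were measured, of which 1 was called higher and 6 lower, or 7.22%, against 3.39% of all genes by their brightest probe (1.66% higher and 1.73% lower). Their median difference was −0.05, and that of all genes was 0.00. In RWPE1, averaged over the times, 99 were measured, of which 12 were called higher and 7 lower, or 19.2%, against 12.2% of all genes (6.65% higher and 5.51% lower), and their median was −0.00. Most measured genes of each list had a mean signal at or above the median of their table, where calls were more common. With dim probes left out, 1197 of 12263 probes were called in VCaP and 2141 of 10295 in RWPE1. The shares over all genes are thus not at like signal, and no excess is read from them. A gene that was not called in VCaP is not thereby shown to be unchanged, as the fit rests on 4 arrays and 1 uneven pair. The VCaP calls depended on which arrays were kept. A fit without 1 array takes its spread from the 1 remaining pair, and the pair labelled ERG shRNA was the less alike. Counts from such fits are therefore not compared.

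Among 15 measured genes of the thioredoxin and glutaredoxin system in VCaP, 1 was called higher and 1 lower, with a median of −0.06. TXNDC17, a thioredoxin-related reductase of the cytosol, fell from 11.67 ± 0.08 to 10.13 ± 0.07 (log2 difference −1.54, 2.92-fold, limma adjusted p = 0.0273). SESN3, a stress-induced sestrin, rose from 8.60 ± 0.09 to 9.69 ± 0.07 (1.09, limma adjusted p = 0.0332). TXNRD1, the cytosolic reductase that recharges thioredoxin, read 10.62 ± 0.08 with scramble and 11.13 ± 0.54 in the arrays labelled ERG shRNA. Its groups did not overlap, nor did those of 51.3% of all probes. The difference of 0.51 was smaller than the SD of the latter pair (limma adjusted p = 0.492). In RWPE1 this system had 16 measured genes, of which 1 was called higher and 2 lower, with a median of −0.03. GLRX, the cytosolic glutaredoxin, rose by 0.36 (limma adjusted p = 5.59e-05), TXNRD1 fell by 0.27 (adjusted p = 0.000911) and SESN2 fell by 0.18 (adjusted p = 0.0135).

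Of the other superoxide and peroxide enzymes, SOD2 moved in both lines. This mitochondrial superoxide dismutase fell from 9.22 ± 0.12 to 8.45 ± 0.07 in VCaP (log2 difference −0.77, limma adjusted p = 0.0492) and SOD2 was 1 of 4 genes called there. In RWPE1, SOD2 rose by 0.49 (limma adjusted p = 4.75e-07) and catalase, CAT, by 0.22 (adjusted p = 0.00166), which made 2 of 4. Glutathione peroxidases, synthesis enzymes and transferases had 22 measured genes in VCaP with none called by limma. The largest VCaP differences were −1.82 for MGST2 and −1.49 for MGST3 (limma adjusted p = 0.0506 and 0.0554), both microsomal glutathione transferases. In RWPE1, limma called 5 of 21 of these genes higher and none lower, while 9 of the 21 had a negative difference. GPX3, the secreted glutathione peroxidase, rose by 0.69 (limma adjusted p = 5.47e-10). GSTM3 rose by 0.25, MGST2 by 0.21, GPX4 by 0.20 and MGST3 by 0.15. The median of the glutathione genes was −0.11 in VCaP and 0.05 in RWPE1.

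Targets of NRF2, the factor that drives many antioxidant genes, gave 19 measured genes in each line. None was called in VCaP by limma, where TALDO1, of the pentose phosphate pathway, had the largest difference with −0.60 (limma adjusted p = 0.0554), and the median was 0.02. In RWPE1, 2 were called higher and 3 lower. PGD, of the pentose phosphate pathway, rose by 0.23 and FTL, the ferritin light chain, by 0.22, whereas SLC7A11, the cystine transporter, fell by 0.52 (limma adjusted p = 4.97e-07), TXNRD1 by 0.27 and TALDO1 by 0.16. Genes of copper transport and delivery, the route in which ATOX1 works, had none of 10 called in VCaP by limma. COX17, which carries copper to cytochrome oxidase, had a difference close to that of ATOX1, at −2.07 or 4.21-fold, but its arrays labelled ERG shRNA stood further apart (12.58 ± 0.06 against 10.51 ± 0.40, limma adjusted p = 0.0516). COMMD1 had −0.79 (limma adjusted p = 0.177). In RWPE1, 1 of 11 copper genes was called, SCO1, which fell by 0.21 (limma adjusted p = 0.00265).

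The TIM23 translocase and the MICOS complex, which shape and feed the membrane in which ROMO1 sits, had 3 of 20 genes called lower in VCaP. MICOS13, a MICOS subunit, fell from 10.77 ± 0.01 to 9.10 ± 0.05 (log2 difference −1.67, limma adjusted p = 0.0205). PAM16, of the import motor, fell by 1.41 (limma adjusted p = 0.0388) and CHCHD6, a MICOS subunit, by 0.52 (adjusted p = 0.0363). The other 17 genes were not called, and the median over the 20 was −0.09. In RWPE1, MICOS13 rose by 0.33 (limma adjusted p = 7.53e-05), as ROMO1 did, while APOO, a MICOS subunit, fell by 1.02 (2.03-fold, adjusted p = 9.17e-11) and MTX2 fell by 0.24 (adjusted p = 0.00137). APOO went from 12.41 ± 0.16 with GFP to 11.33 ± 0.22 with GFP-ERG at 48 h, and from 12.01 ± 0.09 to 11.06 ± 0.01 at 72 h. Of the genes of oxidative folding in the ER, the compartment of PRDX4, VKORC1 was called in both lines, with −1.70 in VCaP (limma adjusted p = 0.0342) as 1 of 14 and 0.17 in RWPE1 (limma adjusted p = 0.0146) as 1 of 15.

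**Figure D5:**
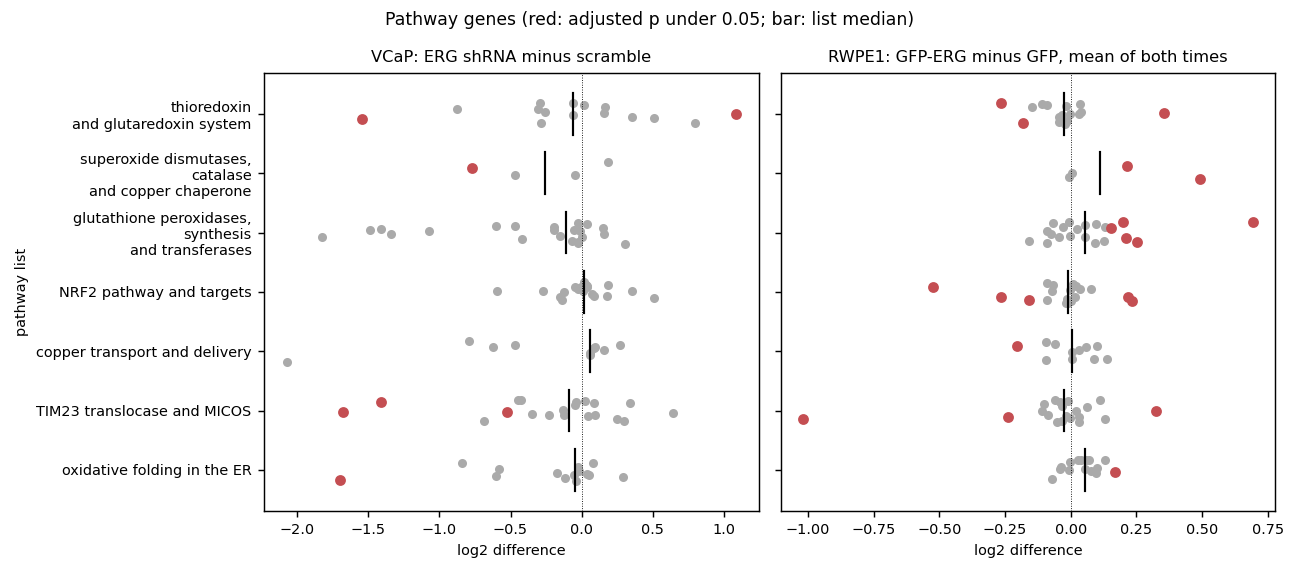
Log2 differences of the genes in 7 pathway lists for VCaP (left) and RWPE1 (right, averaged over the times), with genes past the limma threshold in red, the rest in grey and the list median as a bar. List medians lie between −0.26 and 0.06 in VCaP and between −0.03 and 0.11 in RWPE1, and the scales of the panels differ.

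The genes whose pattern over the arrays was most like that of ROMO1 or ATOX1 were found by the root mean square difference of log2 signals after each gene was centred on its own mean. Over the 4 VCaP arrays and 16921 other genes, the nearest to ROMO1 were CKLF, a chemokine-like factor (0.0930), NDUFA3, a subunit of respiratory complex I (0.100), and ELOB, elongin B (0.118). Nearest to ATOX1 were NDUFA1, of complex I (0.0273), SNRPF, a core protein of the spliceosome (0.0429), and FKBP11, an ER prolyl isomerase (0.0691). These 6 genes had VCaP differences of −2.37 to −1.98. That follows from how they were picked, since the group difference makes up most of the pattern over the 4 arrays. Over the 8 RWPE1 arrays and 16590 other genes, ROMO1, with an SD of 0.30 the most variable gene of the list, was nearest to SOX18, an endothelial transcription factor (0.0449), MFGE8, a milk fat globule protein (0.0544), and ATP6AP1, a subunit of the proton pump of lysosomes (0.0551). SOX18 had a mean of 7.18, close to the bottom of the RWPE1 scale.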

How the data were processed

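Both tables hold log2 signals deposited by the authors. The log2 unit was inferred from the values, which lie between 5.95 and 15.1 (RWPE1) and between 7.44 and 15.4 (VCaP). Not given in the sources used here are the authors' software, background correction and normalization. Array medians (7.23 to 7.24 and 7.75) lie near the bottom of each scale, so differences of dim probes are understated, and 2 arrays per group limit the precision. Probes were named through the platform annotation and RefSeq (GRCh38.p14), and 0 columns of other series were present.

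Every probe of a table entered 1 limma fit (version 3.58.1, R 4.3.3) of group means, 2-sided, with Benjamini-Hochberg adjustment over all probes and a threshold of 0.05. Intervals are 95%. The fit was tested on simulated data. Genes were counted by their brightest probe, and the tables were not joined. Named are all probes of the list and of ERG, up to 4 called genes per pathway list and comparison with the largest differences (2 where none was called), and the 3 genes most like ROMO1 or ATOX1. MGST3 and TALDO1 in RWPE1, the markers and the genes next to the list were named after their values were seen. The genes and lists were chosen with earlier results of these data known. Alternatives were the variance model, normalization, dim probes, background, 1 probe per gene, a replicate block and leaving out each array. Python 3.11.15, pandas 2.3.3 and matplotlib 3.10.9 were used.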

Additional observations from a re-analysis of the deposited data

How the results depend on the processing

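ROMO1 in RWPE1 remained called, between 0.53 and 0.56 as the mean of both times, under all 7 other settings and with any of the 8 arrays left out. The VCaP median over the list lay between −1.15 and −1.11 under the other settings and between −1.23 and −1.004 with 1 array left out, and with background subtracted the ATOX1 difference was −2.58. The VCaP pathway counts depended most on the processing. With trended and robust variance 3 pathway genes were called higher and 16 lower, and with dim probes left out 14 were called lower. With a replicate block for the array number 0 were called higher and 0 lower. With 1 array left out these counts ran from 0 to 5 higher and from 0 to 23 lower. Nothing is read from this range, since each such VCaP fit takes its spread from the 1 remaining pair. All probes called in VCaP numbered 719. With trended and robust variance they numbered 2015, with dim probes left out 1197, with background subtracted 212 and with the replicate block 0. In RWPE1 3 pathway genes were called lower with background subtracted, in place of 7, and 1203 probes were called in place of 2289. The count of genes of the list called for time was 0 to 1 with either construct with 1 array left out, where PRDX1 was lost (0.25 and 0.22). With 1 array left out the RWPE1 differences of SOD1 and PRDX6, near 0, changed sign, from −0.022 to 0.037 for SOD1 and from −0.034 to 0.033 for PRDX6. The replicate block changed no call of a gene of the list in RWPE1. Deviations of same-numbered arrays correlated between −0.05 and 0.07 in RWPE1 and at 0.17 in VCaP, so the numbers were not taken to pair arrays. The cause of these changes was not tested. Signal over the background limits what dim probes can show.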

Other observations

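Genes that lie within 1000 bases of the list were read after their values were known. NFS1 (chr20:35668052-35699352, minus strand), a cysteine desulfurase of mitochondria, starts 53 bases from ROMO1 on the opposite strand. NFS1 differed by 0.03 in VCaP (limma adjusted p = 0.790) and by −0.10 in RWPE1 as the mean of both times (limma adjusted p = 0.223), at mean signals of 7.93 and 7.52, near the bottom of either scale. RBM39, a splicing factor 367 bases from ROMO1 on the other side, differed by −0.23 in VCaP and by 0.09 in RWPE1. Neither neighbour of ROMO1 passed the threshold in the direction of ROMO1 or in the other. TRMT112, a partner of methyltransferases that overlaps the start of PRDX5, differed by −1.14 in VCaP (limma adjusted p = 0.130) and by −0.05 in RWPE1. MMACHC, which handles vitamin B12 and overlaps PRDX1, differed by −0.25 in VCaP (limma adjusted p = 0.0712) and by −0.09 in RWPE1.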
